A study of Homo sapiens with 24 samples.

Results

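The genes described here are the very long protein-coding genes that 22Rv1 cells express: autosomal genes annotated as protein-coding that cover at least 300000 bp of the genome. They were chosen by their span in GENCODE release 29 (GRCh38) and by at least 90 counts summed over the 9 libraries, so the level that selected them is not a result. Of 776 autosomal protein-coding genes of that span, 775 had a row in the count table of 60232 genes, and 526 reached the count minimum. The remaining 249 were set aside. The selection pooled the groups and used no difference between them, but at the level of the DMSO libraries alone 19 of the 526 would have stayed under 90 counts, against 6 at the level of the KB02 libraries and 19 at that of the KB05 libraries. Of the 19 low in DMSO, 4 were called higher with KB02 (PRDM16, ESRRG, GRM7 and DNAH7) and 4 with KB05 (PRDM16, DNAH7, LRRTM4 and ZNF385D), and none of the 19 was called lower with either. Of the 19 low in KB05, 2 were called lower with KB05 than with DMSO (ASTN1 and KCNH8). Those members were reached through the groups where they were high, so their changes are given as a description only. All 526 passed the filter on low counts and were tested among 18379 genes. The members just inside the span limit were COBL with 300607 bp and NOS1AP with 300702 bp, and GHR (298102 bp) and ARMH4 (298405 bp) lay just outside. BACH2 and ADCY2 just passed the count minimum with 91 and 91.7 counts, and RFLNA (88.1) and RBFOX3 (89.7) just missed it.

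RNA was sequenced from the established prostate carcinoma line 22Rv1 in 3 groups of 3 libraries described as biological triplicates. One group received the vehicle DMSO, one KB02 and one KB05, small molecules known here by code name, each at 200 µM. According to the design text, cells were exposed for 1 h and then left for 2 h in medium without compound, and 3 h is the time point on the sample labels. The comparison asks which transcripts differ after each compound and between the compounds at matched dose and time. All 9 libraries come from 1 cell line, and 15 samples taken at 8 h were not analysed here.

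Most of a very long gene is intron, so RNA polymerase II has to travel a long way for an mRNA that is often of ordinary length. Human genes of this size are rich in adhesion molecules, ion channels, cytoskeletal scaffolds and developmental transcription factors, many of them best known from neurons. Several lie in common fragile sites, regions of the genome that break when replication is slowed.

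The members spanned 300.6 to 2305 kb, with a median of 437.8 kb, and 38 exceeded 1000 kb. Exons covered a median of 2.03% of their span, against 16.7% in the other 13333 autosomal protein-coding genes tested. They had a median of 26 separate exon blocks against 10, and their longest intron had a median length of 117 kb against 8.65 kb. Their mRNAs were longer too: the median of the longest annotated coding mRNA was 6.24 kb against 3.28 kb, and 176 members had one of at least 8 kb. Their level was lower, with a median log2 CPM (CPM being counts scaled to equal effective library size) of 2.54 against 4.31, and 134 members lay below a log2 CPM of 1.

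Annotated transcripts and annotations differ in how long some of these genes are. Of the members, 351 also have an annotated coding transcript that covers under 100 kb, and 133 overlap another protein-coding gene. RefSeq gives a gene length for 521 of them, of at least 300 kb for 481 and under 100 kb for 10. TSPAN8 spans 316.8 kb in GENCODE and 32.9 kb in RefSeq, and RASGEF1B 617.9 kb and 45.5 kb. The counts are per gene, so a change could not be assigned to a long or a short transcript.

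The promoters of 6 members are shown because these genes had the largest rise or fall in a comparison (for KB05 against DMSO the 2 largest rises), among called members with a log2 CPM of at least 1, groups that did not overlap and an entry in the RefSeq promoter table (GRCh38.p14). The table held 429 of the 526 members. Each runs from 250 bases before to 50 bases after the annotated start, 5′ to 3′ on the gene's strand. Where RefSeq lists several starts, the most upstream one is given. Capitals mark letters searched for on both strands: GGGCGG (the GC box), CCAAT (the CCAAT box), TATAAA (the TATA box), TGANTCA (the AP-1 site), TGACGTCA (the cyclic AMP element), TGATGCAA (an ATF4 site), TGACNNNGC (the antioxidant response element) and the pair of heat shock motifs in either order (GAANNTTC for one order, TTCNNGAA for the other). Overlapping matches run together. DNAH6 is shown at chr2:84516248-84516547 (plus strand), NBEA at chr13:34942020-34942319 (plus strand) and KMT2C at chr7:152435954-152436253 (minus strand). TSPAN8 is shown at chr12:71157950-71158249, PCDH9 at chr13:67230287-67230586 and RASGEF1B at chr4:81471858-81472157, all on the minus strand. The starts of TSPAN8 and RASGEF1B lie 283.9 kb and 572.3 kb inside their GENCODE spans.
KMT2C: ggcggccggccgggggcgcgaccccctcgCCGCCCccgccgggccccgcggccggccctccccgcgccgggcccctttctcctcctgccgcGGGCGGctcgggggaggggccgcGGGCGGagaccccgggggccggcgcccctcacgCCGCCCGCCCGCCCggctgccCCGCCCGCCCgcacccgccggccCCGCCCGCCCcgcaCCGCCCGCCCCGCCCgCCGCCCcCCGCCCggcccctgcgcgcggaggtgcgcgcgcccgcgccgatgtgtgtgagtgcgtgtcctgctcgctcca
NBEA: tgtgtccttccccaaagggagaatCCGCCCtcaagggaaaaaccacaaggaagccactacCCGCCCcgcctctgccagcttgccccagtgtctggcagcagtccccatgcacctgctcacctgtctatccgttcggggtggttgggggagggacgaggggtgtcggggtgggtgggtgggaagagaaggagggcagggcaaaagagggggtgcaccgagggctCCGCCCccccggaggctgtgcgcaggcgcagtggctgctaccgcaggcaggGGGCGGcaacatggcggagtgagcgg
DNAH6: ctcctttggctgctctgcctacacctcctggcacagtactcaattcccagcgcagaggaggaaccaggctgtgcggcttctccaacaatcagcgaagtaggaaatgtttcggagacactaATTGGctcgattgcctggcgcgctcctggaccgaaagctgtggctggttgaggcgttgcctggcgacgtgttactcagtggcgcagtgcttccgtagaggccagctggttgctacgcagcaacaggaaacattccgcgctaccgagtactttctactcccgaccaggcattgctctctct
TSPAN8: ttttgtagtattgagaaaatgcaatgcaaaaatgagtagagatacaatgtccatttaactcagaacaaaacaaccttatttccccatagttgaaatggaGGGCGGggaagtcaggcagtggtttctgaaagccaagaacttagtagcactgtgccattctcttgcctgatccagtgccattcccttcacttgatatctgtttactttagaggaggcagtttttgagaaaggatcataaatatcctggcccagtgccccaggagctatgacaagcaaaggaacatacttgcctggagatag
PCDH9: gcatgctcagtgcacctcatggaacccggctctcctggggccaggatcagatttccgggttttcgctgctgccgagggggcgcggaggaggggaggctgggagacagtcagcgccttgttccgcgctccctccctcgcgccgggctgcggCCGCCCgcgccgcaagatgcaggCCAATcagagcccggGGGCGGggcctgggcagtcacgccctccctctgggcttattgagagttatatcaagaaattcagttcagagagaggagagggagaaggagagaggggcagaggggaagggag
RASGEF1B: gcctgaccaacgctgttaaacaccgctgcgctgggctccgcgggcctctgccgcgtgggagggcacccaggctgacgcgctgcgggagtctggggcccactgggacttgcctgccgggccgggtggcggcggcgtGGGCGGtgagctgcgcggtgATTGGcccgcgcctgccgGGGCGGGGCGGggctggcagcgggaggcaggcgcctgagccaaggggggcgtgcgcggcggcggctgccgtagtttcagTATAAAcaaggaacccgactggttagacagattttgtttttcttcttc

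The 6 windows differ widely in base composition. KMT2C has a GC content of 88.7% and 15 marked matches, all of them GC boxes, whereas TSPAN8 has a GC content of 42.3% and 1 match. Between these, NBEA holds 4 matches, PCDH9 3, RASGEF1B 5 and DNAH6 1, at GC contents of 67.3%, 65.7%, 70.3% and 57.0%. A GC box occurred in 61.8% of the 429 member promoters, in 68.9% of the 11038 promoters of autosomal protein-coding genes tested and in 44.5% of all 27305 promoters in the table. The AP-1 letters occurred in 4.66%, 4.46% and 7.72% of the same sets, the heat shock letters in 7.46%, 10.0% and 13.7%, and TATAAA in 6.29%, 6.26% and 12.0%. CCAAT occurred in 31.5%, 36.6% and 35.7%, the antioxidant response letters in 12.4%, 14.7% and 13.6%, the cyclic AMP element in 2.10%, 3.15% and 1.97%, and the ATF4 letters in 0.466%, 0.480% and 0.930%. These matches describe letters in a window and are not evidence of binding.

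Depth was 15506975 to 21900548 counts per library, at which 3 counts correspond to 0.129 to 0.195 CPM, a floor that covers counting error only. No pair of replicates agreed within sampling noise (chi-square per degree of freedom 4.43 to 10.6), and all 9 libraries were counted separately. The luminal prostate markers KRT8, KRT18, EPCAM and HOXB13 were present in the DMSO libraries at 1061, 719, 169 and 164 CPM. They stood at 932, 665, 62.0 and 170 CPM with KB02 and at 1234.5, 808, 130 and 204 CPM with KB05. Of 10 markers of other cell types, VWF and KRT5 had no counts in the DMSO libraries, while PTPRC and COL1A1 had 14.2 and 14.5 CPM there. Other markers of this list were not at 0 and differed between groups: ALB stood at 884 ± 14.6, 308 ± 25.2 and 598 ± 16.2 CPM (SD, n = 3) with DMSO, KB02 and KB05, and CD14 at 0.541 ± 0.249, 8.80 ± 2.62 and 0.397 ± 0.269 CPM. Their part in the results below was not tested. These are bulk lysates, so fewer cells with a transcript and less of it per cell cannot be told apart.

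KB02 was followed by higher levels of many very long genes and lower levels of fewer. Of the 526 members, 149 (28.3%) were higher with KB02 than with DMSO at an adjusted p below 0.05, where 22.8% of all genes tested were. Lower with KB02 were 71 (13.5%), where 23.3% of all genes were. The median log2 fold change of the members was 0.13, against 0.00 over all genes tested. The rises had a median size of 1.59-fold and reached 4.28-fold in DNAH7, with 29 of at least 2-fold. These 29 include DNAH7, PRDM16, ESRRG and GRM7, which became members only through the groups where they were high. Their sizes are a description only. The falls had a median of 1.65-fold and a maximum of 3.56-fold, with 17 of at least 2-fold. With scaling by library size alone, which moved the median of all genes to 0.13 and the share of higher calls among all genes from 49.5% to 63.8%, the members' median was 0.26.

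KB05 was followed by rises and falls in similar number in the main analysis. Higher than with DMSO were 63 members (12.0%), where 18.7% of all genes were, and lower were 75 (14.3%), where 21.1% of all genes were. The members' median log2 fold change was -0.02, against 0.00 over all genes, and its sign depended on the libraries and the scaling: it was 0.02 without DMSO replicate 1 and 0.02 with upper-quartile scaling. Without DMSO replicate 1, 64 members were higher and 49 lower. The balance also moved with the fit. DESeq2 gave 44 higher and 65 lower, RLE scaling 60 and 86, and upper-quartile scaling 74 and 64. The rises reached 3.34-fold, with 16 of at least 2-fold, while 3 of the falls were of at least 2-fold: ASTN1, KCNH8 and TLN2. The rises include PRDM16, DNAH7, LRRTM4 and ZNF385D. These, like ASTN1 and KCNH8 among the falls, became members only through the groups where they were high. Their sizes are a description only.

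In the direct comparison of the compounds, 63 members (12.0%) were higher with KB05 than with KB02, where 21.8% of all genes were, and 120 (22.8%) were lower, where 18.2% of all genes were. The median of the members was -0.10 and that of all genes 0.06. Falls had a median size of 1.61-fold and a maximum of 4.52-fold, with 28 of at least 2-fold, and rises a median of 1.44-fold and a maximum of 3.90-fold, with 11 of at least 2-fold. Of the 19 members under 90 counts at the KB05 level, 3 were among those lower with KB05. Of the 6 under 90 at the KB02 level, 1 was among those higher. Of the 19 under 90 at the DMSO level, 2 were higher and 2 lower. Such members were reached through the groups where they were high, so their calls and sizes are a description only. Scaling by library size alone left 35 members higher with KB05 and DESeq2 left 39. It also moved the share of higher calls among all genes from 54.4% to 37.4%. Both compounds were compared with the same DMSO libraries, so their calls against DMSO are not independent of each other.

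The members were set beside shorter genes by classes of span. The share of autosomal protein-coding genes lower with KB02 was 27.4%, 28.6%, 29.6% and 23.3% in genes under 10 kb, of 10 to 30, 30 to 100 and 100 to 300 kb, and 13.5% in the members. Shares higher with KB02 lay between 22.3% and 26.8% in the 4 shorter classes. For KB05 the share of higher genes went from 31.4% under 10 kb through 21.9% and 14.3% to 11.1% at 100 to 300 kb, and was 12.0% in the members. The share lower with KB05 went from 17.8% through 21.9% and 28.7% to 29.2%, and was 14.3% in the members. Since very long genes had lower counts, shares were also taken among genes with a log2 CPM of 2 to 5: 40.3% of 258 members and 25.1% of 5473 other genes were higher with KB02, and 17.4% and 28.2% were lower. In the same range 15.1% of members and 19.4% of the others were higher with KB05 than with DMSO, and 19.0% and 27.0% were lower. Differences between classes of genes were described and not tested.

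**Figure D1:**
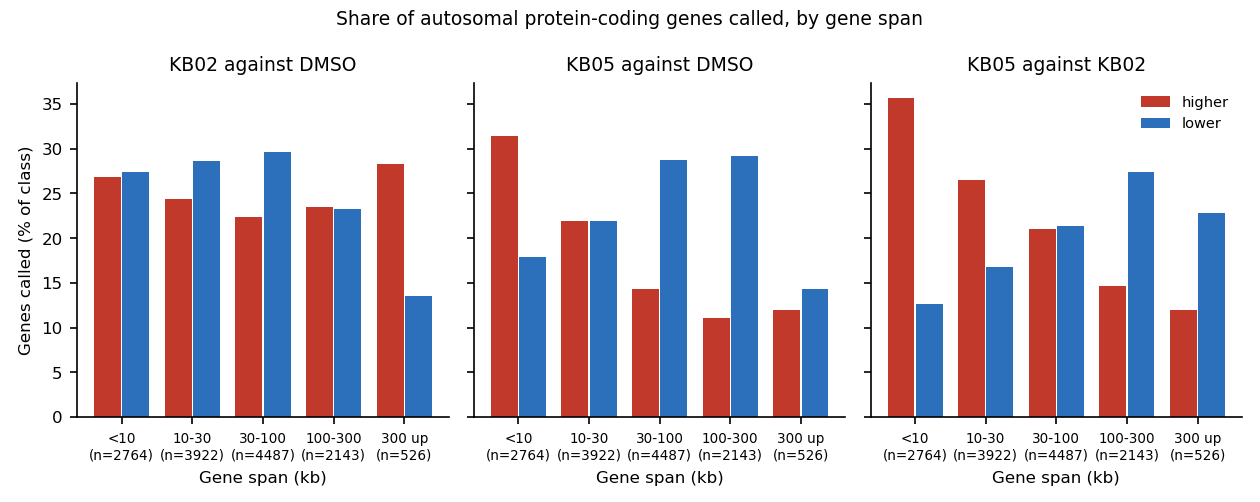
Share of autosomal protein-coding genes called higher (red) or lower (blue) at an adjusted p below 0.05, in percent of each class of gene span in kb, for the 3 comparisons; n is the number of genes in the class. The longest class, the 526 very long genes, has the smallest share of lower genes with KB02 (13.5%), and in both comparisons of KB05 the share of higher genes is largest under 10 kb.

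Within the members, span had little relation to the changes. Across the 526, Spearman's coefficient between span and log2 fold change was 0.04 for KB02 against DMSO, 0.05 for KB05 against DMSO and -0.01 for KB05 against KB02. In the 38 genes of at least 1000 kb, 6 (15.8%) were higher and 5 (13.2%) lower with KB02. With KB05, 5 (13.2%) were higher and 2 (5.26%), PTPRN2 and ROBO1, were lower. Each share was below that over all genes tested, which was 22.8% and 23.3% with KB02 and 18.7% and 21.1% with KB05. The 38 genes also had lower counts, with a median log2 CPM of 2.17 against 3.49 over all genes tested. No share at matched level was taken for them, so the lower shares are not read as a weaker response. These coefficients describe genes of the same libraries, which are not independent replicates.

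The length of the spliced mRNA and the number of exon blocks ran with the changes more than the span did. Classes of mRNA length were set after the values had been seen, so they are given as a description. Of 176 members with a longest coding mRNA of at least 8 kb, 65 (36.9%) rose and 20 (11.4%) fell with KB02. Their median log2 fold change was 0.26. Of 111 members under 4 kb, 15 (13.5%) were higher and 19 (17.1%) lower, with a median of -0.00. Over all genes tested, 22.8% were higher and 23.3% lower with KB02. Scaling by library size alone gave the longer class a median of 0.39, and the shorter one 24 higher, 17 lower and a median of 0.13. With KB05 the order of the medians turned. Members of at least 8 kb had a median of -0.07, with 19 (10.8%) higher and 34 (19.3%) lower than with DMSO. Those under 4 kb had a median of 0.10, with 20 (18.0%) higher and 13 (11.7%) lower. Over all genes tested, 18.7% were higher and 21.1% lower with KB05, so none of these shares exceeded that over all genes. In the direct comparison 14 members (7.95%) of at least 8 kb were higher and 63 (35.8%) lower with KB05 (median -0.26). Under 4 kb, 28 (25.2%) were higher and 1 (0.901%), ARL15, lower (median 0.11). Over all genes tested, 21.8% were higher and 18.2% lower. Several of these counts moved when a library was left out or the fit was changed. Against DMSO, the 20 members under 4 kb higher with KB05 were 10 without DMSO replicate 3 and 11 with DESeq2, and the 19 of at least 8 kb 12 without KB05 replicate 3. Against KB02, the 14 of at least 8 kb higher with KB05 were 9 without KB02 replicate 2 or KB05 replicate 1 or with DESeq2, and 7 with scaling by library size alone. Under 4 kb, the count of 28 was 18 without KB02 replicate 1, 17 without KB02 replicate 2, 18 without KB05 replicate 3, 16 with DESeq2, and 15 with scaling by library size alone, where the median was -0.01. That median was 0.06 without DMSO replicate 2 and 0.17 without KB05 replicate 1. Spearman's coefficient between mRNA length and log2 fold change across 525 members was 0.22, -0.15 and -0.35 for KB02 against DMSO, KB05 against DMSO and KB05 against KB02. For the number of exon blocks it was 0.20, -0.22 and -0.37 across 526 members, and for the mean log2 CPM -0.01, -0.16 and -0.06, so mRNA length was not the only property that ran with the changes.

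Other autosomal protein-coding genes showed a gradient of the same sign for KB05. Of 8147 such genes with an mRNA under 4 kb, 28.4% were higher and 13.6% lower with KB05 than with KB02, and of 991 with one of at least 8 kb 12.6% were higher and 36.0% lower. For KB05 against DMSO, 23.9% were higher and 19.6% lower under 4 kb, and 9.28% and 34.9% at 8 kb or more. For KB02 against DMSO, 24.4% were higher and 27.6% lower under 4 kb, and 26.8% and 23.5% at 8 kb or more. The share of each library's counts in coding genes of at least 8 kb moved with the groups: 3.33% ± 0.154 with DMSO, 3.75% ± 0.0829 with KB02 and 2.94% ± 0.0686 with KB05 (SD, n = 3). The share in the 526 members was 0.690% ± 0.0475, 0.746% ± 0.0349 and 0.642% ± 0.0162. Whether the libraries differ in how well they captured long mRNAs was not tested.

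**Figure D2:**
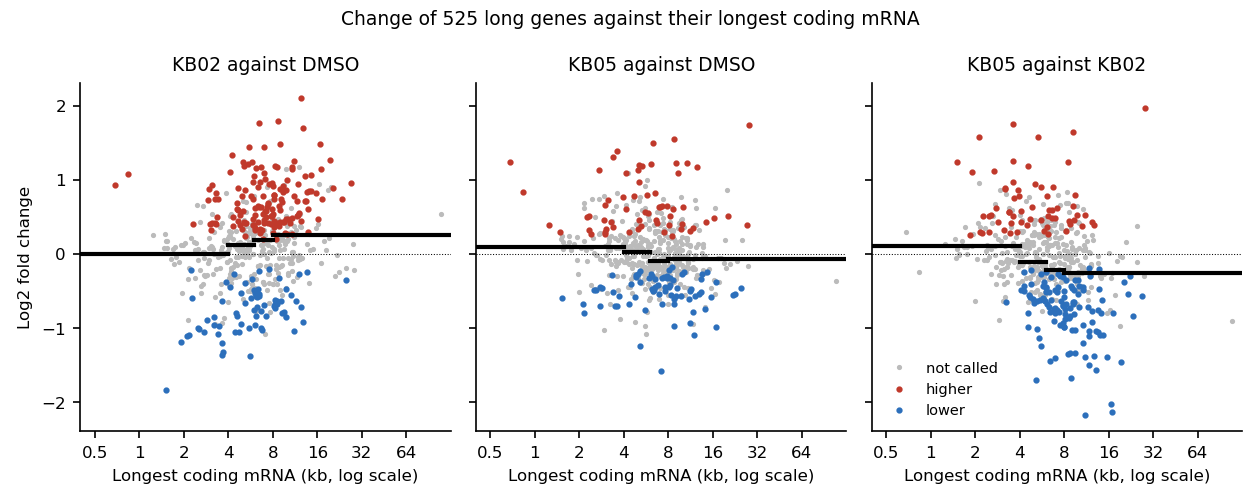
Log2 fold change of each member against the length of its longest coding mRNA in kb (log scale) for the 3 comparisons, with called genes in red (higher) and blue (lower), others in grey, and bars at the median of the classes under 4, 4 to 6, 6 to 8 and at least 8 kb. The bars climb from -0.00 to 0.26 for KB02 against DMSO and descend from 0.11 to -0.26 for KB05 against KB02; 1 member without a coding transcript is not drawn.

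Members were grouped into 6 lists, by the known role of their products or, for the common fragile site genes, by location. The lists are not complete: 224 members are in none. DNAH6, for example, is not in the cytoskeletal list that holds DNAH7. The lists were chosen with earlier results of these data known, so differences between them are a description only and were not tested. They also differed in level and mRNA length. Channels and transporters had a median log2 CPM of 1.69 and a median mRNA of 5.85 kb. Transcription factors and chromatin regulators had 2.77 and 8.03 kb. Every list lay below the median log2 CPM of 3.49 over all genes tested, and no shares at matched level were taken. Over all genes tested, 22.8% were higher and 23.3% lower with KB02, 18.7% and 21.1% with KB05, and 21.8% and 18.2% with KB05 against KB02, and each list's shares stand beside these. Of these lists, transcription factors and chromatin regulators had the largest share of genes higher with KB02. Of 61, 35 (57.4%) were higher and 2 (3.28%) lower than with DMSO, with a median log2 fold change of 0.48. With KB05, 14 (23.0%) were higher and 4 (6.56%) lower (median 0.16). Against KB02, 2 (3.28%) were higher and 23 (37.7%) lower, with a median of -0.21 that was -0.34 without KB02 replicate 2 and -0.32 with scaling by library size alone. The genes lower with KB02, CREB5 and SSBP2, were also those higher with KB05 than with KB02; those lower with KB05 than with DMSO were KMT2C, MED13L, NFIB and RERE, of which 2 were called without KB05 replicate 2. Over all 16 alternative fits, 32 to 40 of them were higher with KB02 and 0 to 3 lower.

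KMT2C, a methyltransferase that marks enhancers on histone H3, moved in opposite directions. Its level was 75.6, 76.7 and 74.2 CPM in the DMSO libraries, 171, 169 and 160.4 CPM with KB02 and 39.3, 37.8 and 36.7 CPM with KB05. The 3 groups did not overlap, and each was tight against the distance between them. KMT2C rose 2.21-fold with KB02 (log2 fold change 1.14 ± 0.07, SE; adjusted p = 6.66e-15), fell by 0.99 ± 0.07 on the log2 scale with KB05 (adjusted p = 1.7e-12) and was 4.40-fold lower with KB05 than with KB02 (adjusted p = 2.89e-20). It lies on chromosome 7 at 152134922 to 152436005, and parts of it have near-identical copies elsewhere in the genome, so the division of reads between them is uncertain.

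HDAC4, a histone deacetylase that shuttles between cytoplasm and nucleus, had 6.03, 5.68 and 6.81 CPM with DMSO, 20.0, 15.4 and 16.4 CPM with KB02 and 7.24, 4.55 and 4.25 CPM with KB05. Only the KB02 libraries stood apart. It rose 2.80-fold with KB02 (1.49 ± 0.16; adjusted p = 1.28e-08) and was 3.20-fold lower with KB05 than with KB02, while its difference between KB05 and DMSO was -0.19 with a half-width of 0.36 at 95%. SOX5, a factor of chondrocyte and neural development, had 4.13, 3.30 and 3.95 CPM with DMSO, 11.7, 10.4 and 8.59 CPM with KB02 and 5.52, 5.92 and 6.27 CPM with KB05. Here the groups were fully separated with KB05 in between: SOX5 rose 2.71-fold with KB02 (adjusted p = 6.48e-09) and 1.56-fold with KB05 (adjusted p = 0.003). BACH1, a repressor of oxidative-stress genes that responds to haem, rose 2.35-fold with KB02, from 4.69 ± 0.87 to 11.0 ± 1.12 CPM (SD, n = 3; adjusted p = 3.27e-08), and 1.74-fold with KB05, to 8.20 ± 0.43 CPM. BACH1 overlaps GRIK1 and measures 63.0 kb in RefSeq.

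FOXP2, a forkhead factor of the developing brain, had 1.53, 0.516 and 0.669 CPM with DMSO and 3.32, 3.02 and 2.99 CPM with KB02, a rise of 3.40-fold (adjusted p = 3.79e-05), and 1.20, 1.17 and 1.03 CPM with KB05, inside the DMSO range. CREB5, a factor related to ATF2, fell with KB02. It had 6.40, 5.58 and 5.84 CPM with DMSO, 3.36, 3.38 and 4.88 CPM with KB02 and 11.1, 8.26 and 7.70 CPM with KB05, so the groups did not overlap and lay on either side of DMSO. Its log2 fold change was -0.63 ± 0.18 with KB02 (adjusted p = 0.00491) and 0.61 ± 0.17 with KB05 (adjusted p = 0.00511), and it was 2.35-fold higher with KB05 than with KB02 (adjusted p = 1.07e-06). PRDM16, a zinc-finger factor of brown fat, and ESRRG, an orphan nuclear receptor, were near the floor in DMSO, where their level alone would not have made them members, at 0.278 ± 0.107 and 0.325 ± 0.091 CPM. PRDM16 rose by 1.79 ± 0.52 on the log2 scale with KB02 and by 1.55 ± 0.54 with KB05, but the first call ended without KB02 replicate 3 (adjusted p = 0.0657) and the second without DMSO replicate 1 (adjusted p = 0.104), KB05 replicate 1 (0.062) or KB05 replicate 3 (0.117) and with DESeq2 (0.0636). ESRRG rose by 1.45 ± 0.49 with KB02, a call that ended without DMSO replicate 3 (0.065) or KB02 replicate 2 (0.071) and with DESeq2 (0.0525). ZNF385D, a zinc-finger gene with an adjusted p of 0.0468 for KB05 against DMSO, lost its call in 11 of 16 alternative fits. ZNF385D would not have been a member at its DMSO level alone either.

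**Figure D3:**
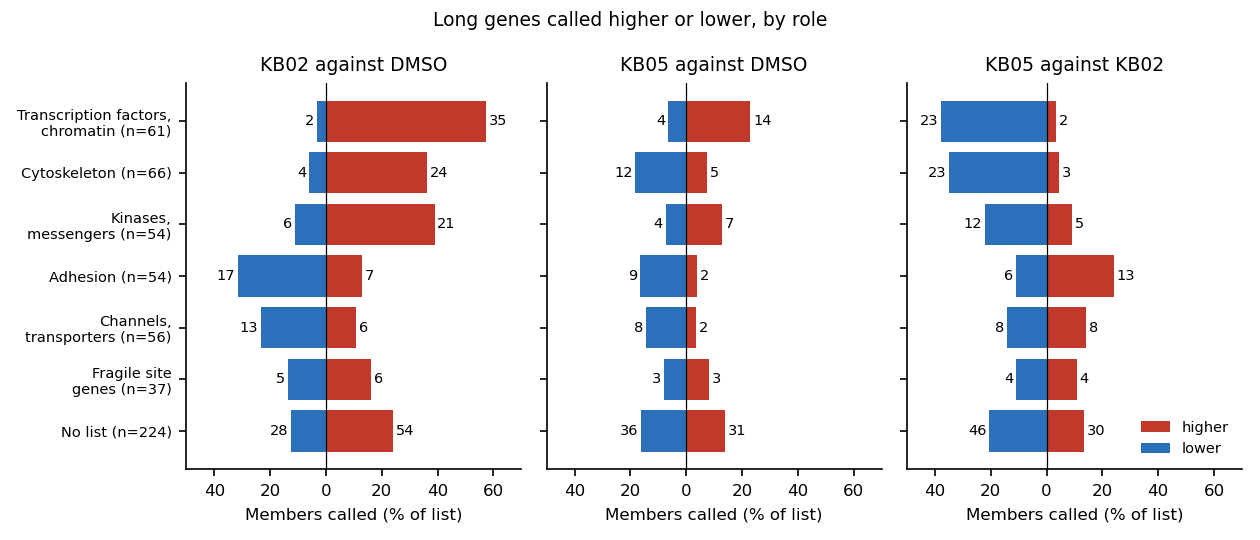
Share of members of each list, and of those in no list, called higher (red, right) or lower (blue, left), in percent, for the 3 comparisons. The number of genes stands at the end of each bar, and lists share some members. Transcription factors and chromatin regulators have 35 of 61 members higher with KB02, whereas adhesion genes have 17 of 54 lower. The lists were chosen with earlier results of these data known, and differences between them were not tested.

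Among the 66 cytoskeletal members, 24 (36.4%) were higher and 4 (6.06%) lower with KB02, with a median of 0.26 that was 0.39 with scaling by library size alone. With KB05, 5 (7.58%) were higher and 12 (18.2%) lower, both below the shares over all genes. Against KB02, 3 (4.55%) were higher with KB05 and 23 (34.8%) lower (median -0.27). The 4 lower with KB02 (FARP1, LIMCH1, MACF1 and SPAG16) were 7 without DMSO replicate 3, and the 5 higher with KB05 (ARHGAP24, DNAH7, FRMD4B, MAP2 and SGCZ) were 3 without KB05 replicate 3. LIMCH1 and SPAG16, with FRMD4B, were also the ones higher with KB05 than with KB02. TRIO, an exchange factor for small GTPases, had 22.3, 22.6 and 23.7 CPM with DMSO, 40.7, 36.3 and 40.8 CPM with KB02 and 15.3, 15.7 and 13.9 CPM with KB05. Its 3 groups did not overlap. It rose 1.72-fold with KB02 (adjusted p = 8.84e-09) and fell 1.53-fold with KB05 (adjusted p = 4.87e-06). DOCK3, an exchange factor for Rac in neurons, had 16.4, 13.0 and 13.3 CPM with DMSO, 20.0, 17.2 and 18.0 CPM with KB02 and 8.18, 6.83 and 6.67 CPM with KB05. It was higher than in any DMSO library with KB02 and lower than in any with KB05, with log2 fold changes of 0.37 ± 0.12 (adjusted p = 0.0108) and -0.97 ± 0.13 (adjusted p = 5e-07).

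TIAM2, another exchange factor for Rac, rose 2.14-fold with KB02, from 2.43 ± 0.66 to 5.22 ± 0.85 CPM (adjusted p = 0.000224), and was 2.63-fold lower with KB05 than with KB02. DNAH7, an axonemal dynein heavy chain, had 0.212, 0.568 and 0.851 CPM with DMSO and 2.50, 2.52 and 1.88 CPM with KB02. This was a rise of 4.28-fold (adjusted p = 3.52e-05). DNAH7 would not have been a member at its DMSO level alone, so its changes are a description only. With KB05 it had 1.46, 0.845 and 1.32 CPM, overlapping DMSO in 1 library, and its rise of 1.18 ± 0.41 on the log2 scale (adjusted p = 0.0221) ended without DMSO replicate 1 (0.139), KB05 replicate 1 (0.0893) or KB05 replicate 3 (0.0617) and with DESeq2 (0.0589). FRMD4B, a scaffold of epithelial polarity, rose with KB05 alone. It had 4.66, 5.06 and 5.05 CPM with DMSO, 5.73, 4.82 and 4.49 CPM with KB02 and 9.85, 9.69 and 9.48 CPM with KB05. It rose 1.97-fold with KB05 (adjusted p = 5.33e-06), while its difference between KB02 and DMSO was 0.03 with a half-width of 0.32 at 95%. FRMD5 rose by 1.24 ± 0.38 with KB02, a call that ended without KB02 replicate 3 (0.0786). ANK2, an adaptor between membrane proteins and spectrin, fell by 0.74 ± 0.26 on the log2 scale with KB05, but the call ended without DMSO replicate 1 (0.0665), DMSO replicate 2 (0.0878) or KB05 replicate 3 (0.187) and with DESeq2 (0.0509).

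Among 54 kinases, phosphatases and second-messenger genes, 21 (38.9%) were higher and 6 (11.1%) lower with KB02 (median 0.28). The 6 were 3 with scaling by library size alone. With KB05, 7 (13.0%) were higher and 4 (7.41%) lower, both below the shares over all genes. Against KB02, 5 (9.26%) were higher with KB05 (ADK, BMPR1B, CAMK2D, PDE4B and RASGEF1B) and 12 (22.2%) lower. The 4 lower with KB05 than with DMSO (AKAP13, PRKAG2, SIPA1L1 and TNS3) were 2 without DMSO replicate 1 or 2, and the 5 higher than with KB02 were 3 without KB02 replicate 1. MAST4, a microtubule-associated kinase, had 7.14, 5.99 and 6.38 CPM with DMSO, 15.6, 13.7 and 14.7 CPM with KB02 and 6.15, 5.92 and 7.01 CPM with KB05. The KB02 libraries alone stood apart, with a rise of 2.26-fold (adjusted p = 6.99e-09). BMPR1B, a receptor kinase for bone morphogenetic proteins, fell: 9.74, 9.50 and 9.30 CPM with DMSO, 4.01, 4.82 and 2.00 CPM with KB02 and 5.47, 7.48 and 7.70 CPM with KB05. Its log2 fold change was -1.38 ± 0.22 with KB02 (adjusted p = 4.01e-05) and -0.47 ± 0.21 with KB05, where the call was missed (adjusted p = 0.0844) although the libraries did not overlap. PDE4B, a phosphodiesterase that breaks down cyclic AMP, fell by 0.84 ± 0.28 with KB02 (adjusted p = 0.0144) and was 2.27-fold higher with KB05 than with KB02 (adjusted p = 0.000911).

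RASGEF1B, an exchange factor for Ras-family GTPases, rose with both compounds. It had 4.02, 4.23 and 4.56 CPM with DMSO, 9.01, 7.79 and 7.09 CPM with KB02 and 11.7, 12.5 and 12.0 CPM with KB05. No groups overlapped, and KB05 was highest: the rise was 1.87-fold with KB02 (adjusted p = 5.73e-06) and 2.82-fold with KB05 (adjusted p = 1.21e-09). MAPK10, a Jun N-terminal kinase found mainly in neurons, rose 2.34-fold with KB05, from 1.11 ± 0.45 to 2.63 ± 0.12 CPM (adjusted p = 0.00222). GRM7, a glutamate receptor coupled to G proteins, rose by 1.34 ± 0.50 on the log2 scale with KB02 (adjusted p = 0.0284) at 0.964 ± 0.367 CPM. The call ended without DMSO replicate 1 (0.115), DMSO replicate 3 (0.0861), KB02 replicate 1 (0.0707) or KB02 replicate 2 (0.119), and with DESeq2 (0.0819). GRM7 would not have been a member at its DMSO level alone, so its rise is a description only.

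Among 54 adhesion molecules and synaptic partners, 17 (31.5%) were lower and 7 (13.0%) higher with KB02, with a median log2 fold change of -0.21. Scaling by library size alone gave 14 lower and 9 higher, with a median of -0.08. With KB05, 9 (16.7%) were lower and 2 (3.70%; PCDH9 and LRRTM4) higher, both below the shares over all genes, and the 9 became 4 without DMSO replicate 1 and 5 without KB05 replicate 3. Against KB02, 13 (24.1%) were higher with KB05 and 6 (11.1%) lower; the 13 became 8 without KB02 replicate 1 or 2 or KB05 replicate 1 or 3, and 6 with scaling by library size alone.

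PCDH7, a protocadherin, had 41.6, 36.6 and 35.8 CPM with DMSO, 20.6, 20.3 and 14.8 CPM with KB02 and 37.2, 37.1 and 29.9 CPM with KB05. Only the KB02 libraries lay below the rest, and PCDH7 fell 2.04-fold (adjusted p = 2.23e-07). PCDH9, another protocadherin, rose with KB05 alone. It had 2.86, 3.72 and 3.10 CPM with DMSO, 2.80, 2.88 and 2.60 CPM with KB02 and 12.6, 11.3 and 8.56 CPM with KB05. DMSO and KB02 overlapped and every KB05 library was above both, with a rise of 3.34-fold over DMSO (1.74 ± 0.18; adjusted p = 3.64e-09) and of 3.90-fold over KB02. PCDH9 covers 927.6 kb of chromosome 13 and has the longest mRNA of the genes named here at 28.2 kb.

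ADGRV1, a very large adhesion receptor of the inner ear, had 14.2, 11.0 and 11.5 CPM with DMSO, 32.4, 28.3 and 27.7 CPM with KB02 and 11.5, 10.4 and 10.2 CPM with KB05. It rose 2.41-fold with KB02 (adjusted p = 3.66e-11), and its difference between KB05 and DMSO was -0.19 with a half-width of 0.24 at 95%. DSCAM, a neuronal recognition molecule, rose 2.26-fold with KB02, to 2.95 ± 0.45 CPM (adjusted p = 0.00381). LRRTM4, a synaptic organiser, rose 2.61-fold with KB05, from 0.529 ± 0.093 to 1.39 ± 0.18 CPM (adjusted p = 0.00803). LRRTM4 would not have been a member at its DMSO level alone, so its rise is a description only. CNTN1, a contactin, had 5.24, 3.05 and 5.41 CPM with DMSO, 2.28, 2.66 and 1.83 CPM with KB02 and 2.45, 2.93 and 2.76 CPM with KB05. All treated libraries lay below the lowest DMSO library. CNTN1 fell 2.00-fold with KB02 (adjusted p = 0.000762), and its fall of 0.75 ± 0.24 on the log2 scale with KB05 (adjusted p = 0.012) ended without DMSO replicate 1 (0.0659), DMSO replicate 3 (0.0652) or KB05 replicate 1 (0.0503).

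Of 56 channels, transporters and their regulators, 13 (23.2%) were lower and 6 (10.7%) higher with KB02, a share of falls near that over all genes. Scaling by library size alone gave 9 lower and 9 higher. With KB05, 8 (14.3%) were lower and 2 (3.57%; KCND2 and STX8) higher, both below the shares over all genes. Against KB02, 8 (14.3%) were higher with KB05 and 8 lower. With DESeq2 the 6 were 3 and the 8 higher than with KB02 were 5. RYR2, the calcium release channel of the heart, had the largest rise of the list: 1.80, 2.38 and 1.58 CPM with DMSO, 6.21, 4.41 and 5.49 CPM with KB02 and 1.62, 1.17 and 1.15 CPM with KB05. KB02 libraries lay above all others, 2.78-fold over DMSO (adjusted p = 4.42e-06) and 4.05-fold over KB05 (adjusted p = 8.08e-08). RYR2 covers 791.8 kb of chromosome 1. KCND2, a voltage-gated potassium channel, rose 2.27-fold with KB05, from 0.850 ± 0.162 to 1.94 ± 0.60 CPM (adjusted p = 0.0113). KCNH8, another potassium channel, fell by 1.24 ± 0.42 on the log2 scale with KB05, from 1.06 ± 0.12 CPM (adjusted p = 0.0172). At its KB05 level alone KCNH8 would not have been a member, so its fall is a description only. The call of KCND2 ended without KB05 replicate 1 (0.101), and that of KCNH8 without DMSO replicate 1 (0.0515) or KB05 replicate 1 (0.0733). SLC9A9, a sodium-proton exchanger of endosomes, fell by 1.37 ± 0.44 with KB02 (adjusted p = 0.0108), a call that ended without DMSO replicate 3 (0.0823) or KB02 replicate 2 (0.053).

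Of the 224 members in no list, 54 (24.1%) were higher and 28 (12.5%) lower with KB02. With KB05, 31 (13.8%) were higher, or 18 with DESeq2, and 36 (16.1%) were lower, or 22 without DMSO replicate 1. TSPAN8, a tetraspanin of epithelial surfaces, had the largest fall of all members with KB02. It had 518, 459 and 467 CPM with DMSO, 145, 141 and 119.5 CPM with KB02 and 296, 337 and 325 CPM with KB05. The 3 groups did not overlap and KB05 lay in between. TSPAN8 fell 3.56-fold with KB02 (-1.83 ± 0.08; adjusted p = 7.94e-18) and 1.51-fold with KB05 (adjusted p = 2.41e-07). With 317 CPM per kb of mRNA in DMSO it also had the highest level per length of all members, and its RefSeq promoter is the one poor in GC above.

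TUSC3, a subunit of the oligosaccharyltransferase that attaches N-glycans, had 226, 173 and 166 CPM with DMSO, 75.9, 79.3 and 69.7 CPM with KB02 and 137, 123 and 120.4 CPM with KB05. It fell 2.51-fold with KB02 (adjusted p = 2.24e-08) and 1.48-fold with KB05 (adjusted p = 0.000324), again with separate groups and KB05 in between. SIL1, a nucleotide exchange factor for the chaperone BiP, had 80.8, 94.4 and 102 CPM with DMSO, 43.0, 38.1 and 40.6 CPM with KB02 and 92.6, 79.7 and 89.3 CPM with KB05. KB02 alone stood apart: SIL1 fell 2.28-fold (adjusted p = 7.36e-13), and KB05 differed from DMSO by -0.08 with a half-width of 0.17 at 95%. SUMF1, which activates sulfatases in the endoplasmic reticulum, fell 2.13-fold with KB02, from 38.6 ± 3.69 to 18.1 ± 1.04 CPM (adjusted p = 3.74e-11), and 1.74-fold with KB05, to 22.2 ± 1.98 CPM. NELL2, a secreted glycoprotein, fell 2.31-fold with KB02, from 84.5 ± 5.36 to 36.6 ± 3.10 CPM (adjusted p = 5.11e-14), and 1.62-fold with KB05, to 52.1 ± 0.94 CPM. ITFG1 and LHFPL6 fell 2.11-fold and 2.14-fold with KB02. Of these, TSPAN8 overlaps LGR5, SIL1 MATR3, SUMF1 both LRRN1 and SETMAR, and ITFG1 PHKB. Among other genes named here, ADGRV1 overlaps LYSMD3, NBEA MAB21L1, WDPCP MDH1, TIAM2 both SCAF8 and TFB1M, MAPK10 both ARHGAP24 and PTPN13, MACROD2 both FLRT3 and SEL1L2, CTNNA1 LRRTM2, and SND1 LRRC4. The sources used here do not say whether counting used strand, so the split of reads between overlapping genes is uncertain.

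NBEA, a scaffold of membrane traffic that binds protein kinase A and is listed only as a fragile-site gene, had the largest difference between the compounds. It had 4.71, 3.98 and 3.40 CPM with DMSO, 10.6, 9.86 and 8.26 CPM with KB02 and 2.66, 1.82 and 1.84 CPM with KB05. No groups overlapped. NBEA rose 2.38-fold with KB02 (adjusted p = 5.78e-07), fell 1.90-fold with KB05 (adjusted p = 0.000578) and was 4.52-fold lower with KB05 than with KB02 (-2.17 ± 0.19; adjusted p = 1.26e-10). FRY, a scaffold of nuclear Dbf2-related kinases, had the same order at 12.4 ± 1.69, 25.7 ± 2.86 and 8.70 ± 1.51 CPM with DMSO, KB02 and KB05, with log2 fold changes of 1.05 ± 0.12 and -0.51 ± 0.14 against DMSO. TANC2, a postsynaptic scaffold, did likewise at 4.77 ± 0.66, 7.84 ± 0.69 and 2.78 ± 0.43 CPM, with 0.71 ± 0.17 and -0.78 ± 0.19.

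DNAH6, an axonemal dynein heavy chain, had 1.59, 2.79 and 1.58 CPM with DMSO, 6.51, 7.70 and 5.21 CPM with KB02 and 3.18, 2.60 and 1.67 CPM with KB05. Its KB02 libraries stood above the rest, 3.24-fold over DMSO (adjusted p = 1.4e-06), and KB05 overlapped DMSO. WDPCP, a gene of planar cell polarity and cilia, rose 2.31-fold with KB02, from 5.27 ± 1.09 to 12.2 ± 1.13 CPM (adjusted p = 9.02e-08). XKR6, of the scramblase-related XK family, had 4.71, 6.82 and 6.20 CPM with DMSO, 8.71, 10.0 and 11.0 CPM with KB02 and 16.1, 12.6 and 15.1 CPM with KB05, and rose 1.67-fold and 2.48-fold (adjusted p = 0.000115 and 2.1e-08). CFAP20DC rose 2.13-fold with KB05 (adjusted p = 0.000691). ENSG00000275778 rose 2.35-fold with KB05 (adjusted p = 1.89e-06) and PRH1 1.79-fold (adjusted p = 0.0332; 0.203 without KB05 replicate 2, 0.114 without DMSO replicate 3, 0.0762 without DMSO replicate 1 and 0.091 with DESeq2), but they overlap each other and a cluster of taste receptor genes, so their counts are uncertain.

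**Figure D4:**
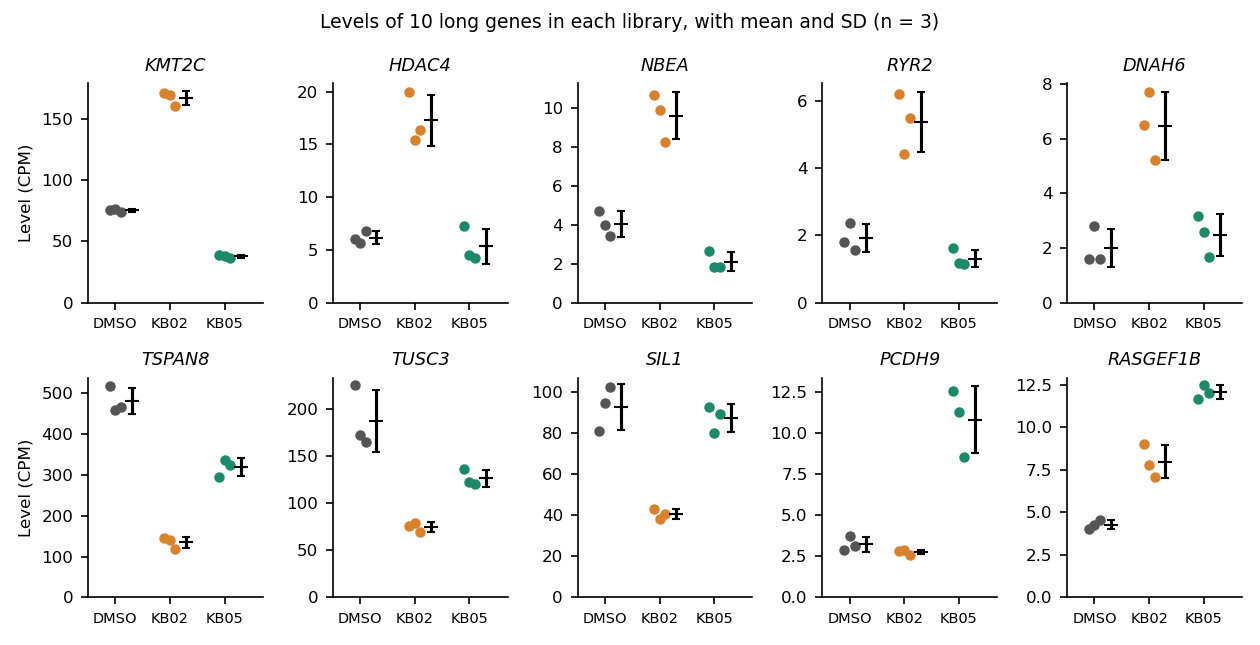
Level in CPM of 10 very long genes in each of the 9 libraries (points), with the mean and SD of each group of 3 beside them; axes start at 0. In the upper row KB02 is highest for all 5 genes, from 4.41 CPM upward for RYR2 to 171 CPM for KMT2C; in the lower row KB02 is lowest for TSPAN8, TUSC3 and SIL1, and KB05 highest for PCDH9 and RASGEF1B.

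Of the 6 members with the longest spans, CSMD1 rose with KB02, MACROD2 rose with KB05 and the other 4 gave no call in any comparison. CNTNAP2, a neuronal adhesion protein and the longest at 2305 kb, had 4.49 ± 0.80, 3.29 ± 0.82 and 4.41 ± 0.17 CPM with DMSO, KB02 and KB05, and neither compound gave a call (adjusted p = 0.067 and 0.921). DLG2, a synaptic scaffold of 2173 kb, stood at 1.79 ± 0.37, 2.47 ± 0.46 and 1.98 ± 0.31 CPM without a call. LRP1B, a lipoprotein receptor relative of 1900 kb, and ROBO2, a guidance receptor of 1743 kb, had at most 1.76 CPM in any group mean and no call. CSMD1, a complement-control protein of 2060 kb, rose 1.64-fold with KB02, from 15.8 ± 1.33 to 26.0 ± 1.31 CPM (adjusted p = 4.31e-07), and KB05 differed from DMSO by -0.05 with a half-width of 0.21 at 95%. MACROD2, a mono-ADP-ribose hydrolase of 2058 kb, had 1.01, 0.774 and 1.16 CPM with DMSO, 1.68, 1.53 and 1.61 CPM with KB02 and 2.03, 1.95 and 2.41 CPM with KB05. Its groups did not overlap, and the rise passed the test with KB05 (2.18-fold; adjusted p = 0.00412) and missed it with KB02 (1.65-fold; adjusted p = 0.0595).

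Levels per length were highest, after TSPAN8, in CTNNA1, TUSC3, SIL1, PPP3CA and SND1, at 66.5, 51.0, 48.1, 48.0 and 45.3 CPM per kb of mRNA in DMSO. CTNNA1, the catenin that links cadherins to actin, fell by 0.38 ± 0.07 on the log2 scale with KB02, from 255 ± 16.7 to 196 ± 15.1 CPM (adjusted p = 6.08e-05). SND1, a nuclease of RNA-protein complexes, had 169.7, 164 and 138 CPM with DMSO, 81.7, 84.3 and 73.8 CPM with KB02 and 104, 94.1 and 93.3 CPM with KB05, and fell 1.97-fold and 1.62-fold (adjusted p = 6.84e-12 and 2.14e-08). PPP3CA, the catalytic subunit of calcineurin, stood at 225 ± 19.9, 248 ± 13.1 and 219.8 ± 13.0 CPM with no call in any comparison. For CTNNA1 and SND1 the higher level with KB05 than with KB02 (1.23-fold and 1.21-fold) was no longer called with scaling by library size alone (adjusted p = 0.0529 and 0.132).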

How the data were processed

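RNA of 22Rv1 cells was sequenced in 9 libraries, 3 each of DMSO, KB02 and KB05. The authors deposited estimated counts per gene, and the submitters' processing notes name Salmon 1.3.0, DESeq2 1.30.1 and the GRCh38 (hg38) build; neither the annotation release nor the use of strand is named in the labels. The counts were rounded to whole numbers, filtered with filterByExpr (minimum count 10) and scaled by TMM. The quasi-likelihood test of edgeR 4.0.16 (R 4.3.3) was fitted over all 3 groups, with Benjamini-Hochberg adjustment over 18379 genes and a threshold of 0.05; every adjusted p here comes from it unless DESeq2 (1.42.0) is named. Levels are CPM computed from the same counts. Values after ± are SD for levels (n = 3) and SE for log2 fold changes. Spans, mRNA lengths and overlaps come from GENCODE 29, and promoters from RefSeq GRCh38.p14. The model was also run on simulated counts in which a small set of genes was changed by at least 2-fold in KB02 alone. In the real data far more genes and smaller changes were called, so that run is no check on those calls.

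Named genes are, per comparison, the 8 members that rose most and the 8 that fell most among those called with a log2 CPM of at least 1 and groups without overlap, the 2 called members with the largest change in each role list, the 6 longest, the 6 highest per length in DMSO and 2 on each side of each selection limit. Other members are named where a count was 5 or fewer or among the other observations at the end, and were chosen after their values were seen. Cell type markers and genes that overlap a member are named besides. The members and lists were chosen with earlier results of these data known. Replicate numbers do not pair the libraries: deviations of same-numbered libraries from their group means correlated at -0.04 to 0.08. Alternatives covered scaling, filter, DESeq2, a replicate block, each library left out and other limits on the members. Some marker and list genes are not reported here.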

Additional observations from a re-analysis of the deposited data

How the results depend on the processing

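Members called numbered 126 to 147 higher and 58 to 74 lower with KB02 when each library was left out in turn, 46 to 64 higher and 49 to 80 lower with KB05, and 42 to 66 higher and 100 to 129 lower with KB05 against KB02. The medians ranged from 0.1119 to 0.1704, from -0.0351 to 0.0157 and from -0.1523 to -0.0845. The 49 and the 0.0157 came without DMSO replicate 1. For KB05 against KB02, DESeq2 gave 39 higher and a median of -0.1358, RLE scaling -0.1328, a fit of the 2 groups alone -0.1449, and library size alone 35 higher and -0.2189. Library size alone moved the KB02 median to 0.2594, and upper-quartile scaling moved the 3 medians to 0.1815, 0.0151 and -0.1253. The replicate block gave 148 higher and 77 lower with KB02 and 64 and 79 with KB05. Counts also moved because the members differed. The 1024 genes of at least 200000 bp gave 287 and 161 for KB02, 122 and 200 for KB05 (median -0.0634), and 123 and 268 for KB05 against KB02. The 201 of at least 500000 bp gave 59 and 23 (0.169), 25 and 17 (0.0195), and 22 and 40. With at least 900 counts the KB05 median was -0.0443. The following limits were chosen after seeing the data. The 349 members with an mRNA under 8000 bases gave 84 higher with KB02 (0.0854), 41 lower with KB05 (0.025), and 57 lower with KB05 against KB02 (-0.0029). The 174 whose shortest coding transcript spans at least 100000 bp gave 41 and 26, 19 and 18, and 21 and 27 (-0.0411). With a log2 CPM of at least 2 the KB05 median was -0.0502. The KB05 median, -0.0158 in the main analysis, was thus above 0 under 4 of these settings. With scaling by library size alone it was also just above 0, at 0.0007. Upper-quartile scaling gave 74 higher and 64 lower with KB05 against 63 and 75 in the main analysis. No direction is drawn from the KB05 median. Of the fits for single named genes, 1482 stayed on the same side of the threshold, 47 lost a call and 22 gained one; the cause was not tested. At 3 counts per library being 0.129 to 0.195 CPM, changes of the 134 members below a log2 CPM of 1 are the least certain.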

Other observations

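The 37 members listed as common fragile site genes had 6 higher (16.2%) and 5 lower (13.5%) with KB02, against 22.8% and 23.3% over all genes tested, and 3 higher (8.11%) and 3 lower (8.11%) with KB05, against 18.7% and 21.1%. Scaling by library size alone gave 10 higher and 3 lower with KB02. The 5 lower with KB02 (CNTN4, CTNNA1, GPC6, NAALADL2 and PTPRG) were 3 without DMSO replicate 1 or 2. The genes below were chosen after their values were seen. FHIT, a diadenosine triphosphate hydrolase in the best known fragile site, had 9.14 ± 0.413, 8.69 ± 0.714 and 9.86 ± 0.376 CPM with DMSO, KB02 and KB05 (SD, n = 3) and no call. PDE4D, a phosphodiesterase of cyclic AMP, had 31.3, 30.4 and 32.6 CPM with DMSO, 76.3, 70.0 and 68.4 CPM with KB02 and 47.2, 44.1 and 42.6 CPM with KB05, and rose 2.28-fold and 1.42-fold (edgeR adjusted p = 6.76e-14 and 5.48e-06).

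Among the 10 members with a RefSeq length under 100 kb, AHR, the aryl hydrocarbon receptor, had 11.2, 10.8 and 11.0 CPM with DMSO, 10.6, 14.7 and 11.4 CPM with KB02 and 17.0, 17.5 and 16.9 CPM with KB05, and rose 1.55-fold with KB05 (edgeR adjusted p = 9.44e-05). ANO5 fell 2.01-fold with KB02 (edgeR adjusted p = 4.74e-05). MRPS22, a subunit of the mitochondrial ribosome, stood at 53.2 ± 4.77, 56.2 ± 3.22 and 55.9 ± 3.44 CPM with no call. A GC box occurred in 66.9% of 121 promoters of members higher with KB02 and in 49.1% of 57 promoters of members lower with it. It was picked after the values were seen. GCGTG (the dioxin response core), not marked in the windows above, differed more, at 58.7% and 36.8%. It occurred in 48.5% of the 429 member promoters and in 49.8% of the 11038 of autosomal protein-coding genes tested. For the GC box those shares were 61.8% and 68.9%. The promoters of members higher and lower with KB02 also differed in median GC content, at 66.7% and 63.3%. The antioxidant response letters stood at 14.0% and 7.02%. TATAAA (6.61% and 8.77%) and the cyclic AMP element (0% and 1.75%) went the other way. These differences were not tested.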
